A study of Mus musculus with 4 samples.

Results

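The genes described here are 49 genes of the lysosome: subunits of its proton pump (the V-ATPase), cathepsins and other acid hydrolases, lysosomal membrane proteins, channels and cholesterol carriers, and the transcription factors Tfeb and Tfe3. They were chosen by name, with earlier results of these data known. They were looked up through the accession of each probe, with the brightest probe taken for each gene. A probe was found for 48 of the 49; Cd68 was not analysed here. The series holds 20802 named genes measured on all arrays, of which 15424 passed the filter for signal above background in a whole genotype, and all 48 lysosome genes were well above background on all 4 arrays.

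Cells of bronchoalveolar lavage fluid (BALF), the cells washed out of the airspaces, were taken from bleomycin-administered mice, and their total RNA was hybridized to 4 one-color arrays. Bleomycin, a drug that injures the lung and is followed by fibrosis in mice, was given intraperitoneally at 0.035 U/g to both genotypes, and the cells were collected on day 22; no array of saline-administered mice is in this comparison. The genotypes were wild-type (n = 2 arrays) and S1pr2-/- (n = 2 arrays), the latter lacking sphingosine-1-phosphate receptor-2 in every cell by targeted disruption, on a mixed background backcrossed to C57BL/6J once, with wild-type littermates as controls. The comparison asks whether loss of this receptor changed gene expression in airspace cells of the injured lung. The labels call the tissue alveolar macrophages, although the RNA came from BALF cells without a stated sort, and the sources used here do not state for the arrays whether cells of several mice were pooled.

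Lysosomes are acidified by the V-ATPase, whose V1 sector hydrolyzes ATP in the cytosol and whose V0 sector carries protons across the membrane, and the acid pH activates cathepsins and other hydrolases. Macrophages are rich in lysosomes because they digest what they engulf, and alveolar macrophages also break down surfactant lipids. Tfeb and Tfe3 are basic helix-loop-helix factors known to bind CLEAR elements, short E-box sequences in the promoters of many lysosomal genes.

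The targeted gene comes first. Its probe was brighter where it should be lost: S1pr2 stood at -0.13 and -0.16 in wild-type and at 2.67 and 2.54 in the samples labelled S1pr2-/- (log2), which goes against the label, and whether this probe lies outside the disrupted part of the gene was not tested. Every direction below follows the labels. An exchange of labels, which would turn every direction, was not tested. All values are log2 of the processed spot intensity over the array's 75th percentile, and differences are S1pr2-/- minus wild-type. The summed linear level of 8 alveolar macrophage markers was 366.8 to 392.9 in wild-type and 353.7 to 390.9 on the arrays labelled S1pr2-/-, so the labelled cell type was present in both, and 6 general macrophage markers summed to 295 to 306 and 284 to 292.6. The 6 eosinophil markers summed to 6.04 and 14.6 on the wild-type arrays and to 2.35 and 3.68 on the arrays labelled S1pr2-/-. This sum rests mostly on Ear6, the brightest of them, which had the smallest log2 fold change (-0.79). All 6 were lower on both arrays labelled S1pr2-/-, with a median log2 fold change of -4.5 and a lowest of -5.6. The 6 neutrophil markers summed to 84 and 93.8 against 58.9 and 67.7. Of the monocyte-derived markers, Cx3cr1 (0.67), C1qa (0.58) and C1qb (0.61) were higher on both arrays labelled S1pr2-/- by log2 fold change, Vcan (-0.099) was lower on both, and Ccr2 (0.083) overlapped. The 6 T cell markers summed to 16.4 and 17.7 against 10.9 and 14.8. In bulk RNA, fewer cells of a type and less RNA per cell cannot be told apart.

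The lysosome genes were expressed at nearly equal levels in both genotypes. None of the 48 passed an adjusted p under 0.05 (limma with Benjamini-Hochberg adjustment over 27161 probes, adjusted p from 0.508 to 1), in a comparison in which 0% of all probes did. At an unadjusted p under 0.05, 7 of the 48 were higher on the arrays labelled S1pr2-/- (Tfeb, Naglu, Acp2, Npc1, Tpp1, Npc2 and Gusb), where 4.55% of all named genes were, and 0 were lower, where 5.95% of all named genes were. That count was 0 with the normexp background correction. For each of these 7 genes, both arrays labelled S1pr2-/- lay above both wild-type arrays. With each array left out in turn, the sign thus could not change, and only the size of the log2 fold changes could vary. They were 0.30 to 0.37 for Tfeb, 0.23 to 0.29 for Naglu, 0.19 to 0.26 for Acp2 and 0.17 to 0.27 for Npc1. For Tpp1 they were 0.15 to 0.23, for Npc2 0.16 to 0.21 and for Gusb 0.16 to 0.20. Such fits leave 1 array in a genotype and have less power than the fit on all arrays. Their counts at an unadjusted p are therefore listed only with the other processing settings at the end. By the methods' t-test, run on these values, 11 were higher and 1 was lower at an unadjusted p under 0.05, and 0 after adjustment. The shares of all named genes by that test are not given, so its counts cannot be set beside them. For 45 of the 48, the 95% interval of the difference lay wholly within 1.5-fold in either direction, against 67.2% of all named genes. The 3 with wider intervals were Ctse, Ctsf and Lgmn. A single gene, Ctse, was past 1.5-fold, where 5.27% of all named genes were.

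Within these narrow limits the genes leaned upward. Both arrays labelled S1pr2-/- lay above both wild-type arrays for 20 of the 48 genes, against 22.2% of all named genes, and below both for 6, against 21.9%. For the other 22 the genotypes overlapped. The median log2 fold change was 0.050 over the 48 genes (from -0.81 to 0.33) and 0 over all named genes. Of the monocyte-derived markers, Cx3cr1, C1qa and C1qb were higher on both arrays labelled S1pr2-/-, Vcan was lower on both and Ccr2 overlapped. The part of these markers in the lean was not tested. The lean was not seen with another background correction: with normexp in place of the processed signal, 6 genes lay above and 9 below, and the median of the 48 genes was -0.050 while that of all probes tested moved to 0.19. Normexp also lowered the number of genes with an interval within 1.5-fold to 20.

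**Figure D1:**
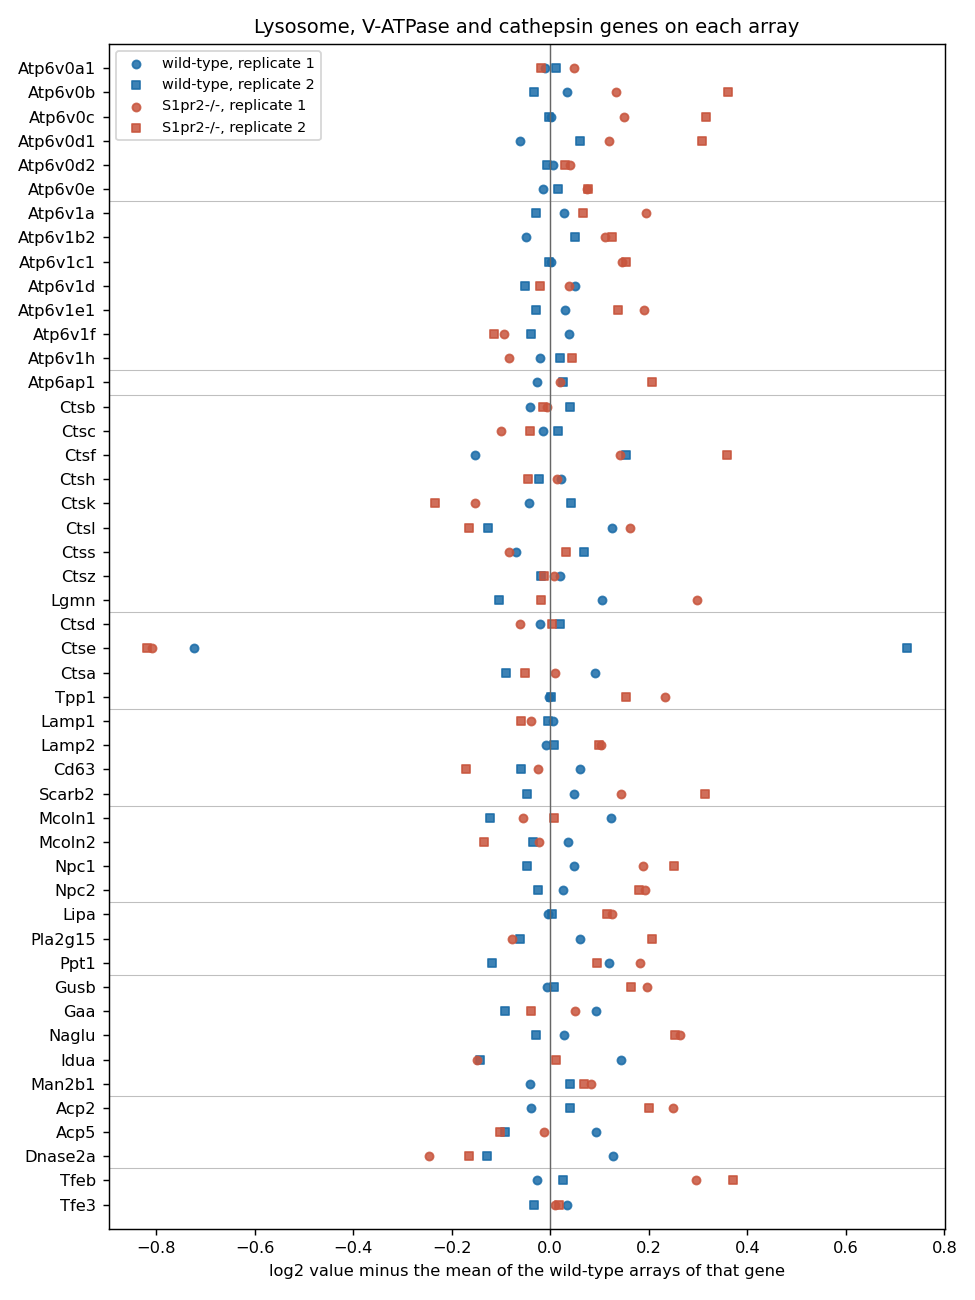
Log2 values of 48 lysosome genes (rows, grouped by role from the V-ATPase at the top to the transcription factors at the bottom) on each of the 4 arrays, as the difference from the mean of the wild-type arrays of the same gene. Blue marks are wild-type and red marks S1pr2-/-, circles replicate 1 and squares replicate 2. Both red marks lie to the right of both blue marks for 20 genes, and 1 blue square, of Ctse, stands far from all other marks.

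Single arrays of different genotypes were somewhat further apart than single arrays of the same genotype. The median absolute log2 difference over the 48 genes was 0.0757 within wild-type and 0.0634 within S1pr2-/-, and for the 4 pairs of arrays of different genotype it was 0.106, 0.137, 0.102 and 0.0962. These pairs share arrays, and no test was made of them. The largest difference within a genotype was that of Ctse between the wild-type arrays (1.45), and among the arrays labelled S1pr2-/- that of Ctsl (0.33), a cysteine protease.

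Of the transcription factors, Tfeb, which drives lysosomal genes when it enters the nucleus, was read at -0.50 and -0.45 on the wild-type arrays and at -0.18 and -0.11 on the arrays labelled S1pr2-/-. Both of the latter lay above both of the former. The log2 fold change was 0.33 (SE 0.064, unadjusted p = 0.0111 and adjusted p = 0.508 from limma), or 26% higher, and it was 0.30 to 0.37 with each array left out in turn. Its relative Tfe3 was read at 3.20 and 3.14 in wild-type and 3.18 and 3.19 on the others by its brighter probe, a log2 fold change of 0.013 (SE 0.059), so that the genotypes overlapped. The dimmer Tfe3 probe was read at 0.35, 0.41, 0.69 and 0.71 on the same arrays, with no overlap and a log2 fold change of 0.32 (SE 0.058, adjusted p = 0.508 from limma). The probes of Tfe3 thus gave different answers, and the difference between Tfeb and Tfe3 (0.32 by the brighter probe) had an exact two-sided permutation p of 0.333, the smallest that 2 arrays against 2 can give, and 0.417 after adjustment over 5 pairs of related genes.

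Promoter sequences, from 250 bases before to 50 bases after a start of transcription, were held in RefSeq (GRCm38.p6) for 41 of the 49 genes. The E-box CACGTG, searched on both strands, was present in a promoter of 14 of the 41 genes (34.1%), against 8.09% of the 27025 genes in the table. The 8-base core of the CLEAR element, TCACGTGA, which contains that E-box, was present in 6 of the 41 (14.6%), against 1.12% of all. The M-box core TCATGTG was found in 7 (17.1%), against 4.31%. A match describes letters in this window only. The 6 genes with the CLEAR core are shown first, each as the stretch around it on the gene's strand with E-boxes, CLEAR cores and M-box cores in capitals, since they are the lysosome genes whose promoters carry the full core of the element bound by Tfeb and Tfe3.
Atp6v0d1 (chr8:105566035-105566108, minus strand): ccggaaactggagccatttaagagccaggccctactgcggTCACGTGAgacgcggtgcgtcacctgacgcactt
Atp6v0e (chr17:26676358-26676425, plus strand): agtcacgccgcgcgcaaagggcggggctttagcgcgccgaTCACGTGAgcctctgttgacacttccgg
Atp6v1a (chr16:44139344-44139431, minus strand): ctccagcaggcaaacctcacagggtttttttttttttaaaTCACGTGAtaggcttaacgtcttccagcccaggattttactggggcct
Ctsa (chr2:164833720-164833802, plus strand): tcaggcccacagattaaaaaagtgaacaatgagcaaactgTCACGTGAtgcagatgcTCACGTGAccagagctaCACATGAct
Ctsd (chr7:142387879-142387966, minus strand): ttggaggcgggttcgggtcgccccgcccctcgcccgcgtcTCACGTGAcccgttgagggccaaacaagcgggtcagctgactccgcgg
Mcoln1 (chr8:3500433-3500520, plus strand): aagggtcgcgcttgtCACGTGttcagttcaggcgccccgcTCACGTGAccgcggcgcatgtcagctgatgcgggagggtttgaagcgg

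A further 3 promoters are shown for the E-box alone: Lamp1, which held the box 4 times, Atp6v0b, which held it 2 times, and Naglu, the hydrolase gene with the largest upward difference among the 48 genes.
Lamp1 (chr8:13159060-13159190, plus strand): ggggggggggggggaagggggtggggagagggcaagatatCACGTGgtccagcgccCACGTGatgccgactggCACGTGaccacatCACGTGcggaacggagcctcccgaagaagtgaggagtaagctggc
Atp6v0b (chr4:117887302-117887405, minus strand): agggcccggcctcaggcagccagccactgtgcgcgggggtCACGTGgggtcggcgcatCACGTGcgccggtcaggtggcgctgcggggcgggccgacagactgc
Naglu (chr11:101069981-101070066, plus strand): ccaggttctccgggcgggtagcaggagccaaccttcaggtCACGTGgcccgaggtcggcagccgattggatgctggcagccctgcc

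The array values of genes with and without the E-box were close. Of the 14 with it, both arrays labelled S1pr2-/- lay above both wild-type arrays for 5 and below for 1, with a median log2 fold change of 0.040. Of the 26 measured genes with a promoter but no E-box, they lay above for 11 and below for 4, with a median of 0.070. The shares of all named genes were 22.2% above and 21.9% below. Among the genes with the CLEAR core shown above, log2 fold changes were 0.21 for Atp6v0d1, 0.13 for Atp6v1a, 0.075 for Atp6v0e, -0.021 for Ctsa, -0.024 for Mcoln1 and -0.029 for Ctsd, with standard errors from 0.054 to 0.112.

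With the processed signal, most V-ATPase subunits lay above their wild-type level by a small amount. Of the 14 measured subunits in the list, 12 had a log2 fold change above 0, and the median was 0.12. Both arrays labelled S1pr2-/- lay above both wild-type arrays for 9 and below for 1. Of all named genes, 49.65% were above 0, 22.2% lay above both and 21.9% below both. None of these 14 passed an unadjusted p under 0.05. Further V0 genes were read with the other lysosomal genes below. Of these, Atp6v0a2 was lower on both arrays labelled S1pr2-/- (-0.185, SE 0.056, unadjusted p = 0.041 and adjusted p = 0.517 from limma). Tcirg1 (0.11, SE 0.080) was higher on both, and Atp6v0e2 (0.25, SE 0.327) overlapped. All 6 subunits of the membrane sector V0 in the list were above 0. The largest were Atp6v0b (0.25, SE 0.107) and Atp6v0c (0.23, SE 0.084), which form the proton-carrying ring, and Atp6v0d1 (0.21, SE 0.103), which links the ring to the central stalk. Atp6v0d1 and its macrophage- and osteoclast-enriched relative Atp6v0d2 differed by 0.18 in log2 fold change, with an exact permutation p of 0.333. Atp6v0d2 itself was read at 5.13, 5.12, 5.16 and 5.15 on wild-type replicates 1 and 2 and S1pr2-/- replicates 1 and 2, a log2 fold change of 0.035 (SE 0.054), while its dimmer probe was read at 3.17, 3.27, 3.48 and 3.48, a log2 fold change of 0.26 (SE 0.065, adjusted p = 0.508 from limma). Of the 7 subunits of the catalytic sector V1, 5 were above 0, led by the stator subunit Atp6v1e1 (0.16, SE 0.061) and by Atp6v1c1 (0.15, SE 0.053). The subunits of the catalytic head, Atp6v1a (0.13, SE 0.076) and Atp6v1b2 (0.12, SE 0.066), were both higher on both arrays, although the dimmer probe of Atp6v1a gave -0.036 (SE 0.087). The regulatory subunit Atp6v1h (-0.020, SE 0.075) and the accessory protein Atp6ap1 (0.11, SE 0.093) overlapped between genotypes, as did Atp6v0a1 of the V0 sector (0.015, SE 0.060). Atp6v1f, of the central stalk, was below both wild-type arrays on both others (-0.10, SE 0.062). Atp6v1d was among the genes with the smallest differences, with 4.58 and 4.48 in wild-type and 4.57 and 4.52 on the others, a log2 fold change of 0.0094 (SE 0.070). With normexp, the values of Atp6v0a1 (-0.054), Atp6v0d2 (-0.053), Atp6v0e (-0.044) and Atp6v1d (-0.084) were below 0. Those of Atp6v1f (-0.21) and Atp6v1h (-0.060) stayed below 0. The highest of the 14 was then Atp6v0b (0.17), under the median of all probes tested (0.19).

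Of 13 proteases, 3 had a log2 fold change above 0 and 10 below it, both arrays labelled S1pr2-/- lay above both wild-type arrays for 1 and below for 3, and the median was -0.015. The 3 below are near the share of all named genes (21.9%), and the 1 above is under theirs (22.2%). The sign of most of them was not settled: Ctsb, Ctsh, Ctsl, Ctss, Ctsz, Ctsd and Ctsa were above 0 with quantile normalization and with cyclic loess. Among the 9 cysteine proteases, cathepsin B (Ctsb) was read at 7.12 and 7.21 on the wild-type arrays and at 7.16 and 7.15 on the others, with a log2 fold change of -0.011 (SE 0.062) and a 95% interval from -0.20 to 0.18. Cathepsin Z (Ctsz) was read at 6.15, 6.11, 6.14 and 6.12 on wild-type replicates 1 and 2 and S1pr2-/- replicates 1 and 2, with an interval from -0.17 to 0.17. For both genes the genotypes overlapped. Cathepsin L (Ctsl) was read at 6.01, 5.76, 6.05 and 5.72 in the same order, with a log2 fold change of -0.0015 and an interval from -0.52 to 0.51; replicate 1 was above replicate 2 in both genotypes. Cathepsin K (Ctsk), a collagen-degrading enzyme, was the cysteine protease with the largest downward difference (-0.19, SE 0.071), with no overlap between genotypes, and cathepsin C (Ctsc), which activates granule serine proteases, was also lower on both (-0.070, SE 0.059). The aminopeptidase cathepsin H (Ctsh) differed by -0.015 (SE 0.061). Cathepsin F (Ctsf, 0.25, SE 0.156) and the asparaginyl endopeptidase legumain (Lgmn, 0.14, SE 0.157) overlapped between genotypes and had wide intervals. The elastolytic cathepsin S (Ctss) differed by -0.026 (SE 0.089). The difference between Ctsk and Ctss was -0.17, with an exact permutation p of 0.333.

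**Figure D2:**
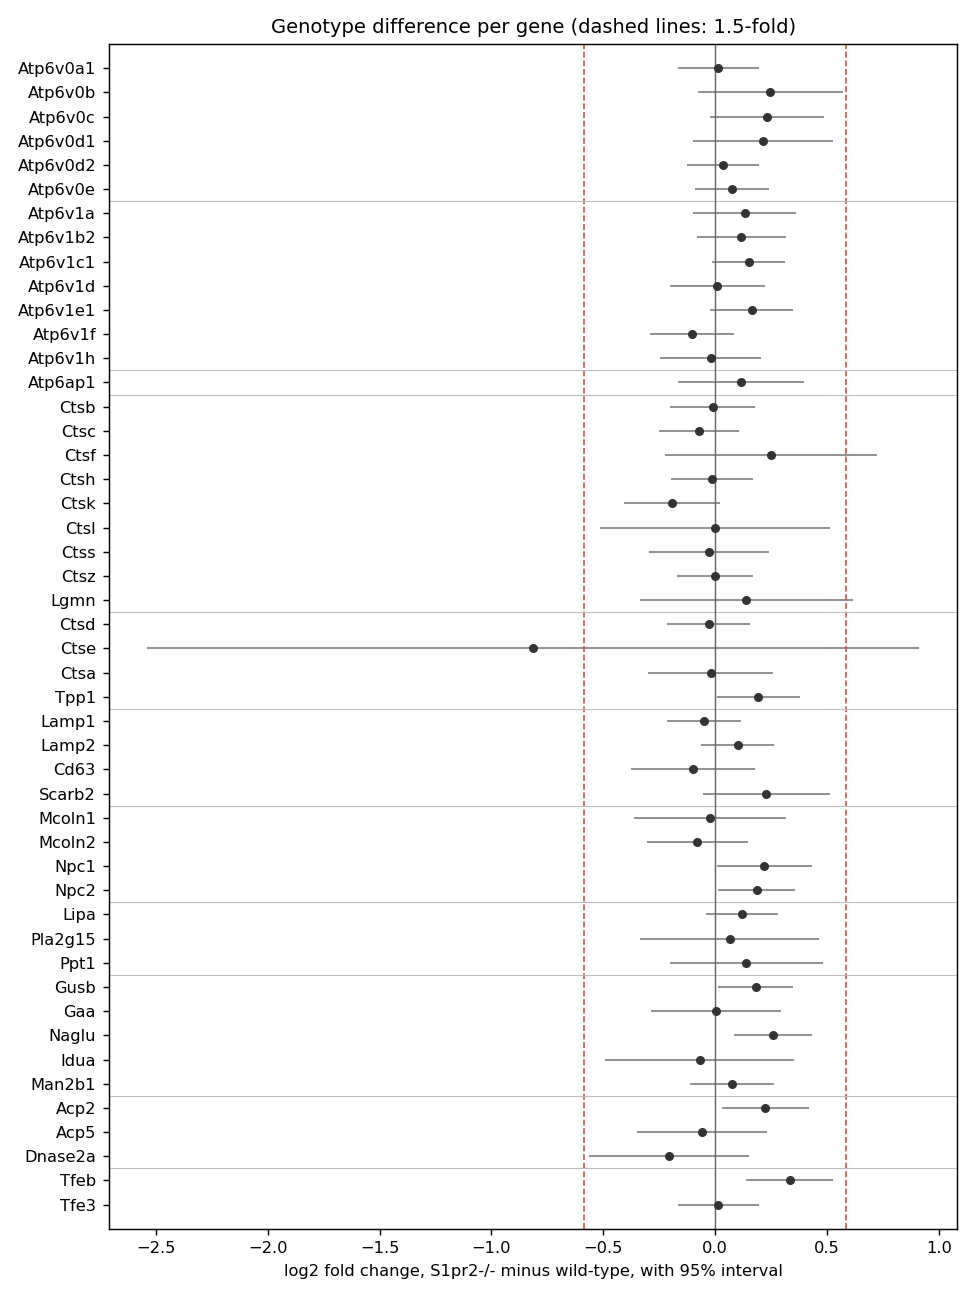
Log2 fold change of each of 48 lysosome genes, S1pr2-/- minus wild-type, with its 95% interval from limma. Dashed lines mark 1.5-fold in either direction and gray lines separate the roles. The intervals of Ctse, Ctsf and Lgmn cross a dashed line and the other 45 do not.

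Cathepsin E (Ctse), an aspartic protease, had the largest difference of the 48 genes and the least certain one. It was read at 0.43 and 1.88 on the wild-type arrays and at 0.35 and 0.34 on the arrays labelled S1pr2-/-. Wild-type replicate 2 was high and the other 3 arrays lay close together. The log2 fold change was -0.81 (SE 0.568, 95% interval from -2.54 to 0.91, adjusted p = 0.664 from limma), and without wild-type replicate 2 it was -0.090. The eosinophil markers Prg2, Epx, Ccr3, Il5ra, Ear6 and Gata1 were also higher on wild-type replicate 2 than on replicate 1, all 6 of them, by 0.92 to 1.83. On the arrays labelled S1pr2-/-, Prg2, Epx, Ccr3, Il5ra and Gata1 lay far below wild-type replicate 1, whereas Ctse lay close to it. The part of the eosinophil markers in the Ctse value was not tested. The other aspartic protease, cathepsin D (Ctsd), differed by -0.029 (SE 0.061) by its brighter probe and by 0.30 (SE 0.146) by its dimmer one. The difference between Ctse and Ctsd was -0.79, with an exact permutation p of 0.333. Cathepsin A (Ctsa), a serine carboxypeptidase, differed by -0.021 (SE 0.091) by its brighter probe and by 0.20 (SE 0.073) by its dimmer one. Tripeptidyl peptidase 1 (Tpp1), a serine protease, was the protease that was higher on both arrays: it was read at 1.96 and 1.96 on the wild-type arrays and at 2.19 and 2.11 on the others, with a log2 fold change of 0.19 (SE 0.061, adjusted p = 0.518 from limma).

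**Figure D3:**
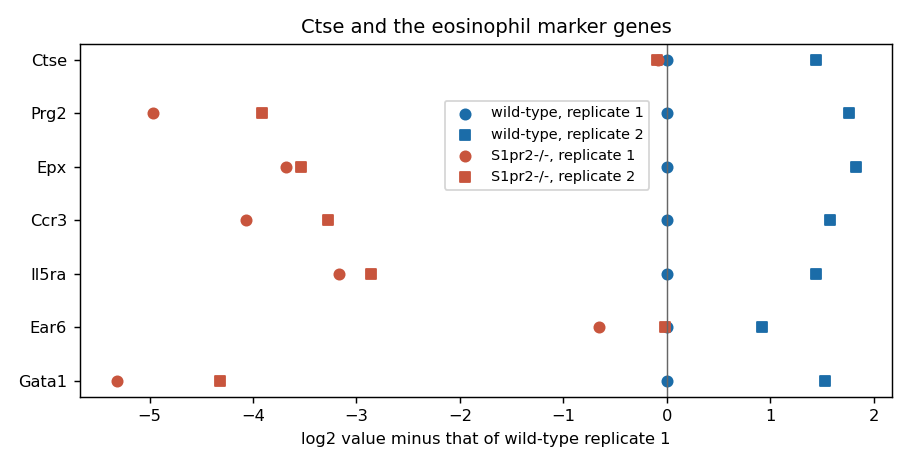
Log2 values of Ctse and of 6 eosinophil marker genes on the 4 arrays, each as the difference from wild-type replicate 1 of the same gene, in blue for wild-type and red for S1pr2-/-. Wild-type replicate 2 lies to the right of replicate 1 in every row, by 1.45 for Ctse, whereas the red marks lie far to the left for 5 of the markers and close to replicate 1 for Ctse.

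The cholesterol carriers Npc1 and Npc2, which together move cholesterol out of the lysosome, were both higher. Npc1 was read at 1.26 and 1.16 on the wild-type arrays and at 1.40 and 1.46 on the others (log2 fold change 0.22, SE 0.070, adjusted p = 0.518 from limma). Npc2 was read at 4.54 and 4.49 on the wild-type arrays and at 4.71 and 4.70 on the others (0.19, SE 0.057, adjusted p = 0.517 from limma). For both genes the genotypes did not overlap. The lysosomal calcium channels Mcoln1 and Mcoln2 overlapped between genotypes, with log2 fold changes of -0.024 (SE 0.112) and -0.079 (SE 0.074). Their difference, -0.055, had an exact permutation p of 0.667. Of the lipid hydrolases, acid lipase (Lipa) was above both wild-type arrays on both others (0.12, SE 0.053), whereas Pla2g15, a phospholipase of surfactant breakdown, and Ppt1, a palmitoyl thioesterase, overlapped (0.064, SE 0.132, and 0.14, SE 0.113).

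Among the glycosidases, Naglu, which removes N-acetylglucosamine from heparan sulfate, was read at 2.59 and 2.53 on the wild-type arrays and at 2.83 and 2.81 on the arrays labelled S1pr2-/-. The log2 fold change was 0.26 (SE 0.058, unadjusted p = 0.0172 and adjusted p = 0.508 from limma), or 19.7% higher. Gusb, the beta-glucuronidase, was read at 4.25 and 4.26 on the wild-type arrays and at 4.45 and 4.42 on the others, with a log2 fold change of 0.18 (SE 0.055, adjusted p = 0.517 from limma). Neither gene overlapped between genotypes. Man2b1, an alpha-mannosidase, was also higher on both arrays (0.076, SE 0.062). Gaa, the glycogen-degrading alpha-glucosidase, was read at 4.25 and 4.07 on the wild-type arrays and at 4.21 and 4.12 on the others, which overlapped (0.0047, SE 0.096), as did Idua, the alpha-iduronidase (-0.069, SE 0.139).

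The acid phosphatase Acp2 was read at 0.47 and 0.55 on the wild-type arrays and at 0.76 and 0.71 on the others (0.22, SE 0.064, adjusted p = 0.517 from limma), and its dimmer probe gave 0.16 (SE 0.061). The tartrate-resistant phosphatase Acp5 overlapped (-0.057, SE 0.096). The acid nuclease Dnase2a was lower on both arrays labelled S1pr2-/- (-0.21, SE 0.118). Of 4 measured membrane proteins, Scarb2, the receptor that carries glucocerebrosidase to the lysosome, was higher on both arrays (0.23, SE 0.093), as was Lamp2 (0.10, SE 0.054). Lamp1, a main glycoprotein of the lysosomal membrane, was lower on both (-0.049, SE 0.054), although by an amount under its standard error, and with quantile normalization it was at 0.0022. The tetraspanin Cd63 overlapped (-0.098, SE 0.092).

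For 11 of the 48 genes a further probe was measured, and it moved the answer for some. The probes had the same sign for 6 genes and opposite signs for 5 (Atp6v1a, Ctsa, Ctsd, Gaa and Idua). They differed by over 0.2 in log2 fold change for 5 genes, Atp6v0d2, Ctsa, Ctsd, Idua and Tfe3, and the dimmer probe was the higher one in all 5. Over all 11 genes, the dimmer probe was above the brighter one for 6 and below it for 5. There were 3 dimmer probes that were higher at an unadjusted p under 0.05, those of Tfe3, Atp6v0d2 and Lamp2, the last of which was designed on another transcript of the gene. Of all probes tested, 1086 of 27161 were higher at that threshold. With the mean of all probes in place of the brightest one, the median log2 fold change of the 48 genes was 0.075 and 22 genes were higher on both arrays.

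**Figure D4:**
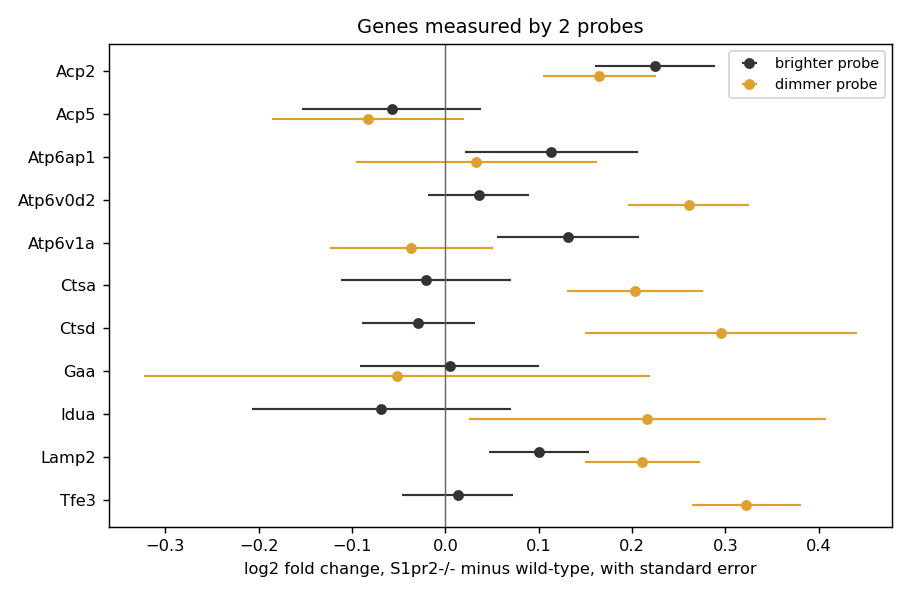
Log2 fold change, S1pr2-/- minus wild-type, by each probe of the 11 genes with 2 probes, with the standard error from limma. Black marks are the brighter probe, which gives the value used elsewhere, and yellow marks the dimmer one. The yellow marks lie well to the right of the black ones for Atp6v0d2, Ctsa, Ctsd, Idua and Tfe3.

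A further 56 lysosomal genes, listed for their function, were read in the same way, and 55 passed the filter (Atp6v1b1, a V1 subunit of kidney and epididymis, did not). None passed an adjusted p under 0.05 from limma. At an unadjusted p under 0.05, 5 were higher and 4 lower, where 4.55% and 5.95% of all named genes were. Both arrays labelled S1pr2-/- lay above both wild-type arrays for 26 and below for 9, against 22.2% and 21.9% of all named genes, and the median log2 fold change was 0.11. The largest upward differences were those of the hydrolases Galc (0.45, SE 0.078), which degrades galactosylceramide, Hyal1 (0.42, SE 0.213), a hyaluronidase, and Galns (0.35, SE 0.057), a sulfatase. The largest downward differences were those of cathepsin O (Ctso, -0.28, SE 0.070), Lamp3 (-0.28, SE 0.103), a membrane protein of dendritic cells and type II pneumocytes, and Tfec (-0.24, SE 0.055), a macrophage relative of Tfeb. Lung epithelial markers had a median log2 fold change of -0.40 and were lower on both arrays for 5 of 6. Dendritic cell markers had a median of -0.038, with 2 of 6 lower on both arrays and 0 higher on both. The part of either cell type in the Lamp3 value was not tested.

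**Figure D5:**
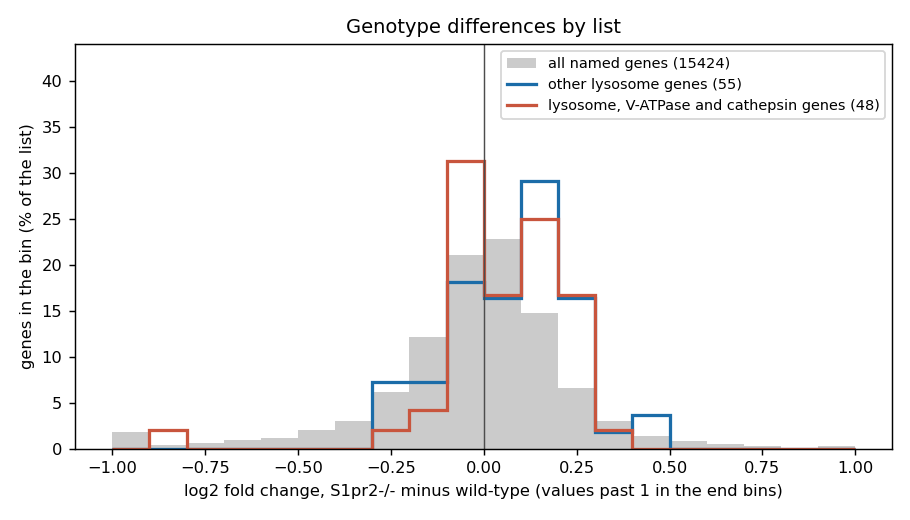
Share of genes (percent of each list) in bins of log2 fold change, S1pr2-/- minus wild-type, for 48 lysosome, V-ATPase and cathepsin genes (red), 55 other lysosomal genes (blue) and 15424 named genes (gray). Most red and blue genes lie between -0.3 and 0.5, with medians of 0.050 and 0.11 against 0 for all named genes.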

How the data were processed

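Per the file headers, the authors' scanner files hold the intensity of every spot, which Agilent Feature Extraction had corrected for background (version 11.0.1.1 in the headers, 10.7.3.1 in the submitters' processing notes). A deposited table of normalized log2 values served only as an alternative. The processed intensities of the spots of a probe were averaged after removal of 115 to 273 outlier spots per array. Each average was divided by the 75th percentile of its array (2489 to 2817) and raised to 0.01 where lower, and log2 was taken. There were 0 saturated spots. limma 3.58.1 (R 4.3.3) was run on 27161 probes that had a value on every array and were above background in at least one whole genotype. RefSeq accessions named 69.6% of 39429 probes. The array design uses another genome build, so coordinates are given only for RefSeq promoters. Since 1 slide and 1 scan held all arrays, no batch could be tested, and precision is limited by their number. Replicates were separate RNA samples, and nothing states that equal numbers pair them.

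Values on every array are given for genes with an unadjusted p under 0.05, past 1.5-fold, or among the 5 smallest differences; of the other lysosomal genes, the 3 largest differences in each direction are named. Further genes with values on every array were chosen after these were seen. A gene of the marker lists is not reported here. The genes and lists were chosen with earlier results of these data known. The fitting script was tested on simulated data. Alternative settings changed the normalization (quantile, cyclic loess, percentile of detected probes, the deposited log2 values), the background (normexp with an offset of 50 on the median signal), the floor, the filter (absent or stricter), the outlier flags, the variance model, the test (the methods' t-test), the pairing by replicate number, the arrays included and the probes taken for a gene.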

Additional observations from a re-analysis of the deposited data

How the results depend on the processing

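No probe and none of the 48 genes passed an adjusted p under 0.05 under any setting run. The number of genes higher at an unadjusted p under 0.05, 7 as reported, was 12 with the percentile over detected probes, 0 with normexp, 2 with the authors' log2 table, 2 without the floor, 13 without the filter, 2 with only probes detected on all arrays, 11 with a trended variance, 11 by the methods' t-test and 1 to 3 with each array left out. With the replicate number as a block it was 2. Over 2 pairs, deviations of same-numbered arrays correlated at 0.187, and the arrays share only a number. The number lower, 0 as reported, was 1 without the filter, with a trended variance and by the methods' t-test. The shares of all named genes under these settings are not given, so the counts cannot be set beside them. With normexp, the intervals within 1.5-fold numbered 20, the genes higher on both arrays 6, and the median log2 fold change was -0.050, while with each array left out it was 0.029 to 0.081. The causes were not tested.

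Of 17 settings, 7 left every fold change as it was (they alter the test, the probes tested, the floor or the outlier flags), and 10 moved it, the mean of all probes for the 11 genes with 2 probes only. Under these 10, 28 of the 48 genes kept their direction, 21 above 0 and 7 below, and the other 20 changed sign in 56 of 480 gene and setting pairs. With quantile normalization, log2 fold changes above 0 replaced those below for Ctsb (0.057), Ctsh (0.061), Ctsl (0.046), Ctss (0.058), Ctsz (0.060), Ctsd (0.057), Ctsa (0.050), Lamp1 (0.0022) and Acp5 (0.014). With cyclic loess the same held for Ctsb (0.031), Ctsh (0.021), Ctsl (0.030), Ctss (0.019), Ctsz (0.031), Ctsd (0.017) and Ctsa (0.017), and with the percentile over detected probes for Ctsl (0.0086) and Ctsz (0.0076). With normexp, values were below 0 for Atp6v0a1 (-0.054), Atp6v0d2 (-0.053), Atp6v0e (-0.044), Atp6v1d (-0.084), Pla2g15 (-0.046), Gaa (-0.086) and Tfe3 (-0.070). With the mean of all probes, the sign turned for Ctsd (0.13), Ctsa (0.091), Gaa (-0.024) and Idua (0.074). With each array left out, 17 genes changed sign at least once: Acp5 lay from -0.15 to 0.034, Atp6v0a1 from -0.019 to 0.048, Atp6v1d from -0.041 to 0.060, Atp6v1h from -0.083 to 0.043, Ctsa from -0.11 to 0.069, Ctsb from -0.052 to 0.030, Ctsd from -0.061 to 0.0028, Ctsh from -0.045 to 0.015, Ctsl from -0.16 to 0.16, Ctss from -0.096 to 0.044, Ctsz from -0.022 to 0.017, Gaa from -0.087 to 0.096, Idua from -0.21 to 0.074, Lgmn from -0.018 to 0.30, Mcoln1 from -0.15 to 0.098, Pla2g15 from -0.077 to 0.21 and Tfe3 from -0.020 to 0.047.

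The fits without an array took the spread of its genotype's remaining array to equal that of the other genotype. With 2 arrays per genotype, differences as small as these cannot be told from the spread between arrays.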
